A study of Hydrangea macrophylla with 27 samples.

Results

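Stems that had never been bent were compared between 2 collections: 24 h after other plants of the same experiment were bent, and 15 min before that bending. The comparison rests on 3 libraries of each, 6 of the 27 libraries in the series, chosen by their labels alone. The plants were wild-type Hydrangea macrophylla of the cultivar 'Wudu', a garden hydrangea, raised from micro-cuttings. In the rest of the series, a plastic curtain bent stems 12 times in a row between 9 and 10 in the morning of a single day, with collections of bent and of unbent stems 1, 3, 24 and 72 h later. Neither group compared here was bent, so by the labels they differ only in when they were taken: before the bending on the same morning, or a day later. The 24 h collection fell later in the day than the earlier one, by at least 15 min, and the sources used here do not give the clock time of any collection. All plants stood in a growth chamber lit by diodes for 16 h a day at 100 µmol of photons per square metre and second. It was held at 23 °C by day, 21 °C by night and 80% relative humidity. The plants had been watered from below 2 days earlier, a value given alike for every group. Any difference in time since watering between the groups compared cannot be told apart from the later collection. Each library was made from about 70 mg of whole stem. The design text calls the 3 libraries of a group biological replicates, and the p-values measure the spread between these samples. Unbent stems of 1, 3 and 72 h and bent stems of 24 h, with 3 libraries each, were used to see where the 24 h level lies.

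Plants answer touch, wounding and handling within minutes. Calcium enters the cytosol, and genes for calcium-binding proteins, for transcription factors of the ERF, WRKY and zinc finger families and for the enzymes of ethylene and jasmonate production are switched on and then off again within hours. Other genes follow the circadian clock, a loop of morning and evening transcription factors that repress each other. A growing stem also makes aquaporins, through which water enters its cells, expansins and other enzymes that let the wall stretch, and, in its green outer cells, the proteins that harvest light.

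RNA was measured by sequencing of poly(A) transcripts, and values refer to assembled transcript clusters rather than to genes of a genome. A cluster carries the name of its best match in Swiss-Prot, a protein database, so clusters of 1 name may be paralogs or fragments that share reads. Levels are given in CPM, a count relative to library size, after TMM scaling, which corrects for library composition, and folds on the log2 scale with their standard error. The 3 libraries before treatment held 15.02 to 18.33 M expected counts and the unbent 24 h libraries 16.38 to 20.93 M, in a range of 14.35 to 23.11 M over the series. Ribosomal RNA took 3.05% to 8.44% of the counts before treatment, the highest in replicate 2 (95% Wilson interval 8.43% to 8.46%, counting error only), and 3.3% to 3.43% at 24 h. Counts matched to thrips were 0.0534% in replicate 3 before treatment (0.0524% to 0.0545%) and at most 0.00991% in the other libraries compared. Counts matched to a ringspot virus were 4.28% to 5.97% before and 3.6% to 5.31% at 24 h. Markers of the labelled stem tissues were present in both groups: the xylem list summed to 1153 to 1415 CPM before and 1141 to 1633 CPM at 24 h, the phloem list to 741 to 848 and 774 to 859 CPM, the meristem list to 2953 to 3366 and 3175 to 3339 CPM, and the epidermis list to 384 to 409 and 325 to 420 CPM. Single markers differed in several lists. Of 44 xylem markers tested, 2 were called higher (4.55%) and 1 lower (2.27%), and of 25 phloem markers 1 was called lower (4%) and 0 higher. Of 37 epidermis markers tested, 3 were called lower (8.11%, against 3.75% of all clusters) and 2 higher (5.41%, against 4.66%). The 2 called higher were WER (1.18 ± 0.21, adjusted p = 0.00121) and GEM (0.51 ± 0.14, adjusted p = 0.0153). Among those called lower were TTG1 and GL2. Summed over all clusters of a name, which was not tested, some epidermis markers were lower. The regulator ATML1 summed to 2.78 to 3.65 CPM before and 1.05 to 2.14 CPM at 24 h, the wax enzyme KCS1 to 5.28 to 6.79 and 2.18 to 4.33 CPM, and the regulator GL2 to 25.3 to 27.2 and 18.4 to 20.6 CPM, each without overlap. CER3, another marker of the list, held 31.8 to 37.1 CPM before and 23.6 to 36.1 CPM at 24 h, with overlap. The part of epidermis in the results was not tested. In whole stems, fewer cells of a type and less RNA per cell cannot be told apart.

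A day after the first collection, ethylene genes and early response transcription factors were more often lower than higher, while photosynthesis, aquaporin and wall loosening genes were more often higher. Most members of each of these lists were not called. Of 52918 clusters tested, 4446 differed at an adjusted p under 0.05 (8.4%), 2464 higher at 24 h (4.66%) and 1982 lower (3.75%), by the quasi-likelihood test of edgeR, with p adjusted after Benjamini and Hochberg. The falls were the larger changes. Among the called clusters, 540 were lower by 2-fold or more and 232 higher, and 205 against 37 passed 4-fold. The median log2 fold change was 0.48 for the clusters called higher and -0.60 for those called lower, beside -0.01 over all clusters tested. The 3 and 3 libraries did not overlap in 2408 of the clusters called higher and 1888 of those called lower. The share without overlap over all clusters tested was not counted. The calls rest on the same libraries, so these counts add no separate support. Where list members were named by smallest p, separation of their groups adds none either. The total was 2690 without unbent 24 h replicate 3, 2920 without unbent 24 h replicate 1 and 2959 without replicate 1 before treatment, and 1289 without replicates 2 and 3 before treatment.

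**Figure D1:**
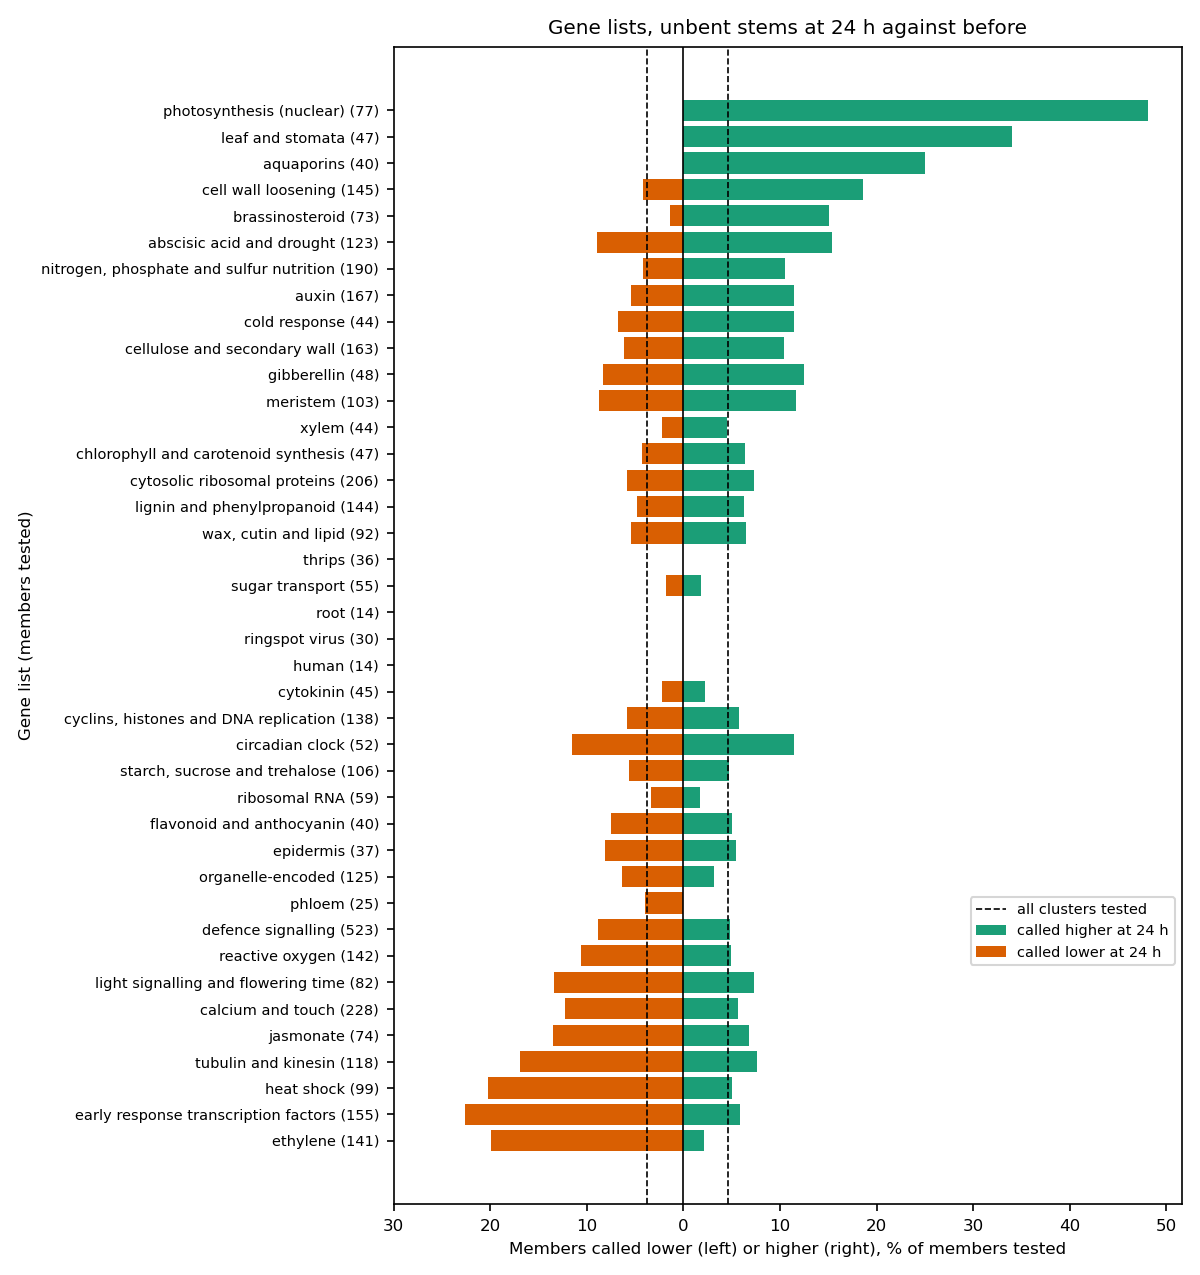
Members of each gene list called higher (right) or lower (left) in unbent stems at 24 h than before, as a percent of the members tested, with the number tested in brackets; dashed lines mark the shares over all clusters tested (4.66% higher, 3.75% lower). Nuclear photosynthesis genes extend farthest to the right, with 48.1% of members higher and 0 lower. Early response transcription factors extend farthest to the left, with 22.6% of members lower, followed by heat shock proteins at 20.2% and the ethylene list at 19.9%.

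Ethylene genes, from the enzymes that make the hormone to the ERF transcription factors at the end of its pathway, were more often lower than higher. Of 141 members tested, 28 were called lower and 3 higher, and the median log2 fold change was -0.20; the lower count was 20 to 32 when 1 library was left out. ACS1 (Cluster-9242.4021), which makes the direct precursor of ethylene, measured 15.3, 12.5 and 21.4 CPM before and 3.48, 3.43 and 5.45 CPM at 24 h. All 3 libraries before treatment lay above all 3 of 24 h, in a cluster named by smallest p. It fell by 2.01 ± 0.21 on the log2 scale (adjusted p = 6.71e-09). ERF5, a transcription factor of the early ethylene and stress response, was represented by several clusters. The most abundant before treatment (Cluster-9242.54699) held 122, 100 and 134 CPM, against 6.55, 8.56 and 27 CPM at 24 h, the last value being replicate 3. This cluster was among the largest falls, for which groups without overlap were a condition of naming. The log2 fold change was -3.11 ± 0.39 (adjusted p = 5.38e-05). This call was lost in a fit of the 6 libraries alone. Cluster-9242.37191 went from 78.8, 64.5 and 109 CPM to 8.32, 9.52 and 15.1 CPM (-2.95 ± 0.32, adjusted p = 1.1e-05). The 3 unbent 24 h libraries of Cluster-9242.38271 were close to each other at 15.1, 17.4 and 17.6 CPM, and the libraries before treatment held 67.4, 55.8 and 93.2 CPM (-2.11 ± 0.18, adjusted p = 7.5e-07). All 3 ERF5 clusters were thus several times lower in every library of 24 h. ERF1, another activator at the end of the pathway, fell from 29.2, 24 and 52.4 CPM to 2.52, 4.19 and 6.25 CPM (-3.05 ± 0.46, adjusted p = 0.00029). PTI6, an ERF-type regulator of defence genes in tomato, fell by 1.32 ± 0.14 (adjusted p = 1.68e-08). EIN3, the factor that the ethylene signal stabilises, rose by 0.54 (adjusted p = 2.33e-05), and CTR1, the kinase that represses the pathway, fell by 0.50 (adjusted p = 0.000136); both were picked after their values were seen.

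Early response transcription factors, the WRKY, ZAT, CCCH zinc finger, MYB and DREB proteins that stress switches on first, showed the highest share of falls among the lists. Of 155 tested, 35 were called lower and 9 higher, with a median log2 fold change of -0.27. Without replicate 3 before treatment, 22 were lower, and the higher count was 5 without replicate 1 or 3 before treatment or without unbent 24 h replicate 2. A CCCH zinc finger cluster matched to rice Os05g0128200 (Cluster-9242.53417) held 205, 175 and 329 CPM before and 42.1, 38.4 and 52.2 CPM at 24 h. The groups were far apart, with the highest value in replicate 3 before treatment. It fell by 2.42 ± 0.28 on the log2 scale (adjusted p = 1.97e-05). A second CCCH cluster, matched to At2g40140 of Arabidopsis, went from 115, 109 and 188 CPM to 30.3, 30 and 37.1 CPM (-2.09 ± 0.25, adjusted p = 2.82e-05). MYB73 (Cluster-9242.54471) held 68.6, 73.1 and 80.4 CPM before and 39.2, 44.1 and 44.6 CPM at 24 h, a smaller change with little spread (-0.80 ± 0.09, adjusted p = 7.9e-08). Other members were picked after their values were seen. ZAT10, a zinc finger repressor active in the response to several stresses, was called lower in 4 clusters. The most abundant of them (Cluster-9242.61613) held 77.3, 68.9 and 109 CPM before and 6.55, 6.9 and 19.4 CPM at 24 h (-2.99, adjusted p = 0.000123). WRKY70, which links salicylate and jasmonate signalling in Arabidopsis, went from 45.7, 57.7 and 79.4 CPM to 19.7, 17.8 and 26.7 CPM in Cluster-9242.65847 (-1.52, adjusted p = 0.00198). Among the 9 members called higher was a CCCH cluster matched to At2g19810 (0.56 ± 0.08, adjusted p = 2.6e-05).

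Calcium and touch genes were lower in part. Of 228 tested, 28 were called lower (12.3%, against 3.75% of all clusters) and 13 higher (5.7%, against 4.66%). Their median of -0.02 was near that of all clusters. Without replicate 3 before treatment 17 were lower, and 8 were higher without replicate 2 before treatment or without unbent 24 h replicate 1. Small calcium-binding proteins held the large falls among those named. CML23 (Cluster-9242.25787), a calmodulin-like sensor, held 11.3, 12.4 and 21.1 CPM before and 1.46, 1.24 and 2.94 CPM at 24 h. KRP1, another calcium-binding protein, held 57.3, 54.4 and 90.5 CPM before and 6.25, 5.85 and 10.9 CPM at 24 h. Both were among the largest falls, for which groups without overlap were a condition of naming. They fell by 3.02 ± 0.48 (adjusted p = 0.000473) and 3.16 ± 0.34 (adjusted p = 1.24e-05) on the log2 scale. CIPK14, a kinase that works with calcium sensors, went from 25, 22.8 and 30.2 CPM to 8.98, 9.94 and 8.88 CPM (-1.49 ± 0.17, adjusted p = 2.4e-06). The calcium pump ACA4 fell by 0.48 ± 0.08 (adjusted p = 7.77e-05). CML24, whose Arabidopsis counterpart is the touch gene TCH2, was picked after its values were seen: it held 36, 32.7 and 51.2 CPM before and 9.18, 6.19 and 12.2 CPM at 24 h (-2.14, adjusted p = 0.000174). Other members were higher. The mechanosensitive channel MSL10 rose from 24.1, 27.9 and 24.7 CPM to 40.9, 29.6 and 38.8 CPM (0.51, adjusted p = 0.0008), and the osmotically gated calcium channel OSCA1 rose by 0.47 (adjusted p = 0.00883); both were also picked after their values were seen.

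In the jasmonate list, 10 of 74 members were lower (13.5%, against 3.75% of all clusters) and 5 higher (6.76%, against 4.66%). The median was -0.07. The lower count was 3, 6 and 5 without unbent 24 h replicates 1, 2 and 3 and 6 without replicate 1 before treatment, and the higher count was 1 or 2 without any 1 of these libraries except unbent 24 h replicate 2. MYC2 (Cluster-9242.54106), the central transcription factor of the jasmonate response, held 76.6, 66.9 and 99.6 CPM before and 17.7, 13.9 and 21.8 CPM at 24 h. Every library before treatment lay far above every library of 24 h, in a gene named by smallest p. It fell by 2.20 ± 0.17 (adjusted p = 1.6e-07). The jasmonate synthesis enzyme allene oxide cyclase (AOC) was slightly higher, at 156, 148 and 144 CPM before and 181, 160 and 179 CPM at 24 h (0.22, adjusted p = 0.0259, picked after its values were seen). Of the defence signalling list, 46 of 523 members were lower (8.8%, against 3.75% of all clusters) and 25 higher. The share higher, 4.78%, was near the 4.66% of all clusters. Without replicate 3 before treatment, 30 were lower. The higher count was 15 without replicate 1 or 3 before treatment, 13 without unbent 24 h replicate 1 and 10 without unbent 24 h replicate 3.

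The 15 largest falls of clusters with a name also took in genes not described above. Of these, NUDT18 and BAP2 belong to the defence signalling list and are part of its count. Groups that did not overlap were a condition of naming the largest falls and rises, so that separation is no result for them. PUB23, a ubiquitin ligase that dampens immune signalling in Arabidopsis, went from 8.44, 10.7 and 16.2 CPM to 0.605, 0.238 and 0.858 CPM (-4.42 ± 0.60, adjusted p = 0.000101). PUMP5, a carrier of the inner mitochondrial membrane, held 75.9, 73 and 113 CPM before and 5.29, 6.28 and 10.4 CPM at 24 h (-3.60 ± 0.39, adjusted p = 1.1e-05). CAF1-9, which shortens the poly(A) tails of messenger RNAs, held 81.9, 69.1 and 101 CPM before and 6.05, 6.33 and 17.8 CPM at 24 h (-3.09 ± 0.39, adjusted p = 5.89e-05). A mean of at least 10 CPM in the higher group was a condition of naming. At 24 h PUB23 did not exceed 0.858 CPM, while PUMP5 and CAF1-9 reached 10.4 and 17.8 CPM in replicate 3. PHI-1 (Cluster-9242.7841), a secreted protein of the EXORDIUM family linked to growth, went from 22.7, 14.1 and 34.5 CPM to 0.706, 0.523 and 3.43 CPM (-4.03 ± 0.58, adjusted p = 0.000177), a call that was lost in a fit of the 6 libraries alone. The phosphatase matched to At2g30020, which in Arabidopsis acts on stress-activated MAP kinases, fell by 3.24 ± 0.42 (adjusted p = 7.51e-05). The hydrolase NUDT18 fell by 3.29 ± 0.36 (adjusted p = 1.35e-05), and BAP2, which restrains cell death in Arabidopsis, fell by 3.37 ± 0.38 (adjusted p = 5.38e-06). GATL9, matched to enzymes of pectin synthesis, fell by 4.42 ± 0.78 (adjusted p = 0.00122).

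**Figure D2:**
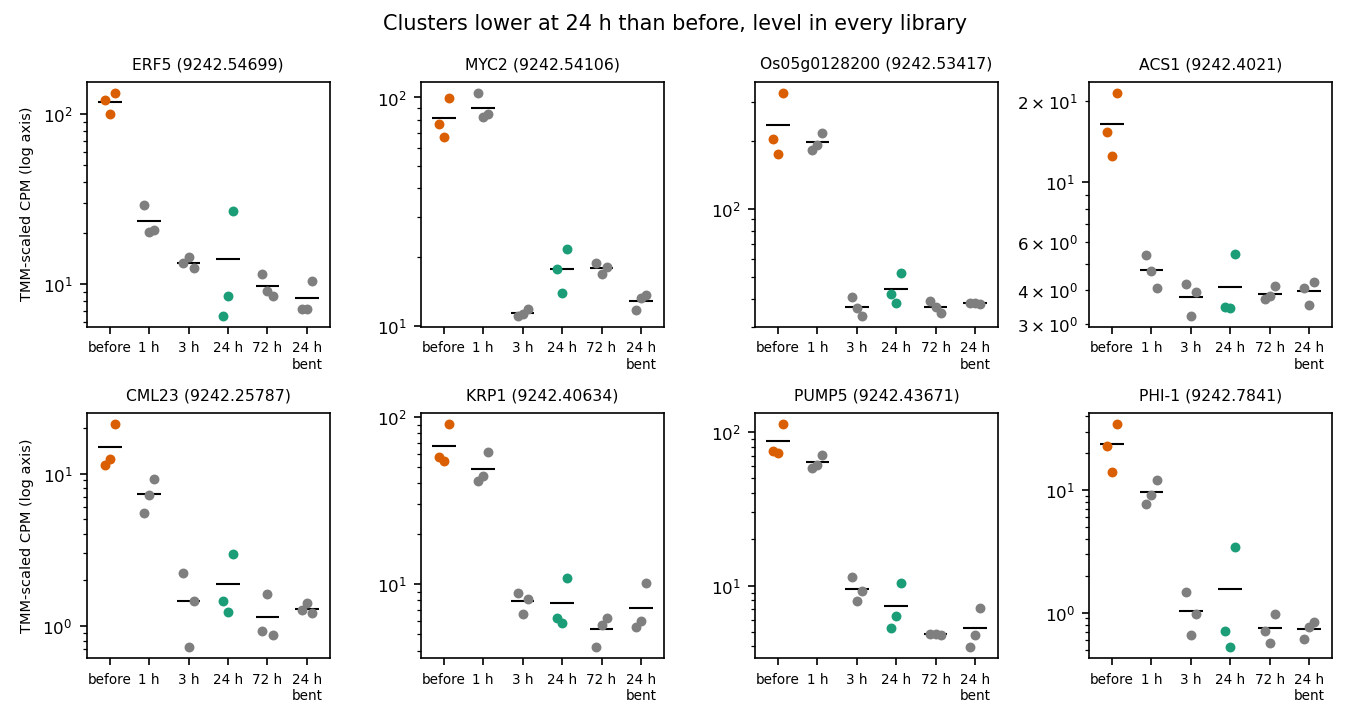
Level of 8 clusters that fell, in every library of 6 groups (TMM-scaled CPM, log axis; points are libraries, horizontal lines group means; orange, before treatment; green, unbent 24 h; grey, other groups). In each panel the 3 libraries before treatment lie above the 3 of unbent 24 h, a condition of naming for the largest falls among them. The unbent 3 h, unbent 72 h and bent 24 h libraries lie near those of unbent 24 h. MYC2 averaged 81 CPM before and 11.4, 17.8, 18 and 12.9 CPM at 3 h, 24 h, 72 h and in bent stems of 24 h.

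Several of these genes had levels in unbent stems of 3 h and 72 h near those of 24 h, and levels at 1 h near those before treatment. MYC2 averaged 90.4 CPM in unbent stems of 1 h, 11.4 CPM at 3 h and 18 CPM at 72 h. KRP1 averaged 49, 7.89 and 5.39 CPM at these times, and PUMP5 63.5, 9.47 and 4.83 CPM. For these 3 genes, levels were high before treatment and at 1 h, and low from 3 h on. PTI6 and MYB73 were exceptions among those named: at 24 h they were lower than at 72 h by 0.83 ± 0.15 (adjusted p = 0.000383) and 0.35 ± 0.09 (adjusted p = 0.0297). A direct comparison of unbent stems of 24 h with those of 1 h, which uses no library from before treatment, called 9279 clusters (17.5%), 4233 higher (8%) and 5046 lower (9.54%). In it, 49 ethylene members were lower at 24 h and 10 higher, 56 early response transcription factors were lower and 16 higher, and 75 calcium and touch members were lower and 17 higher. MYC2 was lower at 24 h than at 1 h by 2.35 ± 0.17 on the log2 scale (adjusted p = 2.47e-09), CIPK14 by 2.56 ± 0.17 (adjusted p = 5.58e-12) and PUMP5 by 3.14 ± 0.38 (adjusted p = 5.14e-06). Some falls had means at 1 h above those before treatment, a step not tested here. CIPK14 averaged 26 CPM before and 54.8 CPM at 1 h, and MYB73 74 and 203 CPM. ACS1 and 2 of the ERF5 clusters had another course. ACS1 held 5.4, 4.72 and 4.07 CPM at 1 h, where the difference from 24 h did not pass the test (-0.21 ± 0.22, adjusted p = 0.623), and so was high before treatment alone. ERF5 in Cluster-9242.54699 averaged 119 CPM before, 23.4 CPM at 1 h and 14 CPM at 24 h, and the last step did not pass (adjusted p = 0.216).

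Within the group before treatment, replicate 3 was often the highest. It held the highest of the 3 values in 15 of the 15 largest falls, in 30 of the 35 early response transcription factors called lower, in 23 of 28 ethylene members, in 21 of 28 calcium and touch members and in 38 of 46 defence members. Of 20 heat shock members called lower, it was highest in 11. Over all clusters tested it was highest in 34.4%, over those called lower in 47.4% and over those called higher in 41.3%. Among clusters called lower by 2-fold or more it was highest in 60.6%, and by 4-fold or more in 66.3%. This library also held the most counts matched to thrips, at 0.0534%, and their part in the result was not tested. Without it, 20 ethylene members were called lower, against 28 with it. Of the clusters named by the rule, 142 to 146 of the 154 called were called when any 1 of the 6 libraries was left out.

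Many nuclear genes of photosynthesis rose, by small steps. Of 77 tested, 37 were called higher, 0 lower and 40 not called, with a median log2 fold change of 0.30, and 30 to 38 were higher and 0 or 1 lower when 1 library was left out. Among the 4 members named by smallest p, 3 were chlorophyll a-b binding proteins, which surround the photosystems and collect light. CAB21 (Cluster-9242.52917) held 1771, 1539 and 1661 CPM before and 2606, 2355 and 2525 CPM at 24 h (0.59 ± 0.07, adjusted p = 9.6e-07). A second CAB21 cluster (Cluster-9242.56096) held 287, 255 and 270 CPM before and 450, 432 and 429 CPM at 24 h (0.69 ± 0.08, adjusted p = 1.99e-07). CAB1B held 391, 351 and 323 CPM before and 594, 526 and 575 CPM at 24 h (0.67 ± 0.07, adjusted p = 7.9e-08). In all 3 clusters the lowest library of 24 h lay well above the highest before treatment. Naming by smallest p favours such separation, so it adds no support. PSAO, a small subunit of photosystem I, rose from 103, 91.3 and 98.7 CPM to 172, 147 and 159 CPM (0.71 ± 0.08, adjusted p = 4.39e-07). Of the chlorophyll and carotenoid synthesis list, 3 of 47 were higher (6.38%) and 2 lower (4.26%), near the 4.66% and 3.75% of all clusters. The list had a median of 0.02. In it PORA, the light-dependent step of chlorophyll synthesis, rose by 0.59 ± 0.09 (adjusted p = 0.000122), and CHLH, a subunit of magnesium chelatase, fell by 0.47 ± 0.11 (adjusted p = 0.0109).

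The leaf and stomata markers, a list that shares its chlorophyll a-b binding proteins with the photosynthesis list, were also higher. They summed to 6122 to 7162 CPM before and 8409 to 9411 CPM at 24 h, and 16 of 47 tested were higher and 0 lower. The small Rubisco subunit RBCS, abundant in leaf tissue, was at 319 to 387 CPM before and 317 to 387 CPM at 24 h. A less abundant match, RBCS1, was at 7.25 to 10.1 CPM before and 6.23 to 7.09 CPM at 24 h, lower without overlap. The stomatal lineage genes SPCH and EPF2 did not exceed 0.399 CPM in any of the 6 libraries. The part of leaf tissue in the photosynthesis result was not tested beyond these values. Members of the list also rose against unbent stems of 1 h, where 46 photosynthesis members were higher at 24 h and 0 lower; CAB1B was higher by 1.41 ± 0.07 (adjusted p = 6.46e-18).

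Aquaporins were higher or not called. Of 40 aquaporins tested, 10 were higher and 0 lower, with a median of 0.17, and 7 to 12 were higher when 1 library was left out. TIP1-1, the main channel of the vacuolar membrane, held 210, 194 and 205 CPM before and 435, 385 and 433 CPM at 24 h. TIP1-1 was among the largest rises, for which groups without overlap were a condition of naming. It rose by 1.04 ± 0.12 on the log2 scale (adjusted p = 1.25e-05). PIP1-3 (Cluster-9242.52759), a channel of the plasma membrane, held 144, 149 and 156 CPM before and 293, 231 and 280 CPM at 24 h (0.84 ± 0.13, adjusted p = 0.000358). PIP1-5 rose in 2 clusters, by 0.78 ± 0.12 (adjusted p = 2.44e-05) and 0.62 ± 0.08 (adjusted p = 5.59e-07).

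Of 145 genes of wall loosening, 27 were higher and 6 lower, with a median of 0.21; the higher count was 16 without unbent 24 h replicate 3. The rises were mainly pectate lyases, expansins, xyloglucan endotransglucosylases and endoglucanases. EXPB3, a beta-expansin, held 24.8, 21 and 19.8 CPM before and 55.4, 47.1 and 57 CPM at 24 h. It rose by 1.28 ± 0.10 (adjusted p = 6.03e-13). EXPB16 held 31.2, 28.4 and 27.5 CPM before and 62.3, 53.2 and 58.9 CPM at 24 h (1.00 ± 0.11, adjusted p = 1.18e-07). Both expansins were among the largest rises, for which groups without overlap were a condition of naming. A pectate lyase matched to At1g04680 (Cluster-9242.49346) held 38.8, 38 and 39.7 CPM before and 67.3, 58.5 and 64.6 CPM at 24 h (0.71 ± 0.09, adjusted p = 7.5e-07). The 6 members called lower were 4 PHI-1 clusters, the expansin EXPB2, near 0 in the 24 h libraries, and XTH22. EXPB2 held 6.9, 1.68 and 0.63 CPM before treatment, highest in replicate 1, and its call was lost with limma-voom and in a fit of the 6 libraries alone. XTH22, whose Arabidopsis counterpart is the touch gene TCH4, held 3.42, 2.97 and 11.2 CPM before and 0.353, 0.428 and 0.429 CPM at 24 h (-3.89, adjusted p = 0.00329, picked after its values were seen). In the cellulose and secondary wall list, 17 of 163 were higher (10.4%, against 4.66% of all clusters) and 10 lower (6.13%, against 3.75%). Leaving out any 1 of the 6 libraries except unbent 24 h replicate 2 gave 7 to 11 higher. Leaving out replicate 1 or 3 before treatment or unbent 24 h replicate 2 or 3 gave 4 to 6 lower. CESA9, a catalytic subunit of cellulose synthase, rose from 109, 113 and 111 CPM to 163, 143 and 170 CPM (0.52 ± 0.08, adjusted p = 1.97e-05). COB, matched to COBRA, which orients cellulose in expanding cells, rose by 0.47 ± 0.07 (adjusted p = 1.53e-05), and a CESA3 cluster fell by 0.65 ± 0.12 (adjusted p = 0.000389).

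Auxin and brassinosteroid genes were called higher more often than all clusters (4.66%), at 11.4% and 15.1% of members, and gibberellin genes at 12.5%. In the auxin list 19 of 167 were higher and 9 lower. The higher count was 12 without replicate 1 before treatment and 11 and 10 without unbent 24 h replicates 1 and 3, and the lower count 3, 5 and 4 without replicates 1 and 3 before treatment and unbent 24 h replicate 3. WAT1, a vacuolar auxin exporter needed for wall thickening in Arabidopsis, rose from 10.8, 11.3 and 14.4 CPM to 20.9, 19.2 and 19.6 CPM in Cluster-9242.50032 (0.71 ± 0.13, adjusted p = 0.000142). The auxin-induced SAUR36 fell from 3.08, 1.81 and 4.15 CPM to 0.252, 0.523 and 0.613 CPM (-2.72 ± 0.41, adjusted p = 3e-05). In the brassinosteroid list 11 of 73 were higher and 1 lower, with 6 or 7 higher without any 1 of the 6 libraries except replicate 3 before treatment. CYP90A1, an enzyme of brassinosteroid synthesis, rose in 2 clusters, by 0.91 ± 0.15 (adjusted p = 3.54e-05) and 0.60 ± 0.09 (adjusted p = 1.49e-05). Of 48 gibberellin genes, 6 were higher and 4 lower, and 1 was lower without replicate 1 before treatment. GASA12, a small secreted protein induced by gibberellin, rose from 60.7, 54.6 and 61.2 CPM to 113, 97.8 and 105 CPM (0.84 ± 0.08, adjusted p = 2.3e-10). The gibberellin receptor GID1B fell from 13.7, 14.9 and 14.7 CPM to 7.21, 6.47 and 7.66 CPM (-1.02 ± 0.19, adjusted p = 0.000776). The 2 gibberellin genes changed in opposite directions. Neither showed overlap between the groups, but both were named by smallest p.

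Abscisic acid and drought genes moved both ways. Of 123 tested, 19 were higher (15.4%, against 4.66% of all clusters) and 11 lower (8.94%, against 3.75%), with a median of 0.18. Without unbent 24 h replicate 2, the lower count was 7. NCED1, which catalyses the rate-limiting step of abscisic acid synthesis, held 7.77, 9.12 and 10.5 CPM before and 19.5, 19.3 and 16.5 CPM at 24 h (1.01 ± 0.14, adjusted p = 2.36e-06). LTI65, a protein that drought and abscisic acid induce, rose from 12.9, 15.6 and 17.8 CPM to 53.1, 54 and 42.2 CPM (1.69 ± 0.31, adjusted p = 0.00179); limma-voom did not call it. It averaged 186 CPM at 1 h, 324 CPM at 3 h and 17.5 CPM at 72 h in unbent stems, so the 24 h level lay between those of 3 h and 72 h. ERD15, a regulator of abscisic acid responses, rose from 178, 191 and 198 CPM to 293, 303 and 329 CPM (0.71 ± 0.07, adjusted p = 1.68e-08). The abscisic acid receptor PYL4 fell in 3 clusters, by 0.82 to 1.10 on the log2 scale, and its relative PYL3 rose by 0.80 (adjusted p = 0.000256); these were picked after their values were seen.

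Outside these lists, the largest rise of a named cluster was a vacuolar-processing enzyme (Cluster-9242.65252), a protease that matures vacuolar proteins. It held 6.7, 10 and 9.3 CPM before and 41, 48.9 and 46.4 CPM at 24 h (2.38 ± 0.38, adjusted p = 0.000501). TPRP-F1, a proline-rich wall protein, held 58.1, 55.7 and 82.6 CPM before and 209, 181 and 204 CPM at 24 h (1.59 ± 0.31, adjusted p = 0.00274). ILK1, an integrin-linked protein kinase, rose from 3.55, 3.69 and 2.99 CPM to 9.33, 10.7 and 10.2 CPM (1.57 ± 0.17, adjusted p = 1.01e-08). GATA5, a transcription factor, rose from 86.3, 74.3 and 82.2 CPM to 159, 148 and 159 CPM (0.94 ± 0.08, adjusted p = 3.99e-12).

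**Figure D3:**
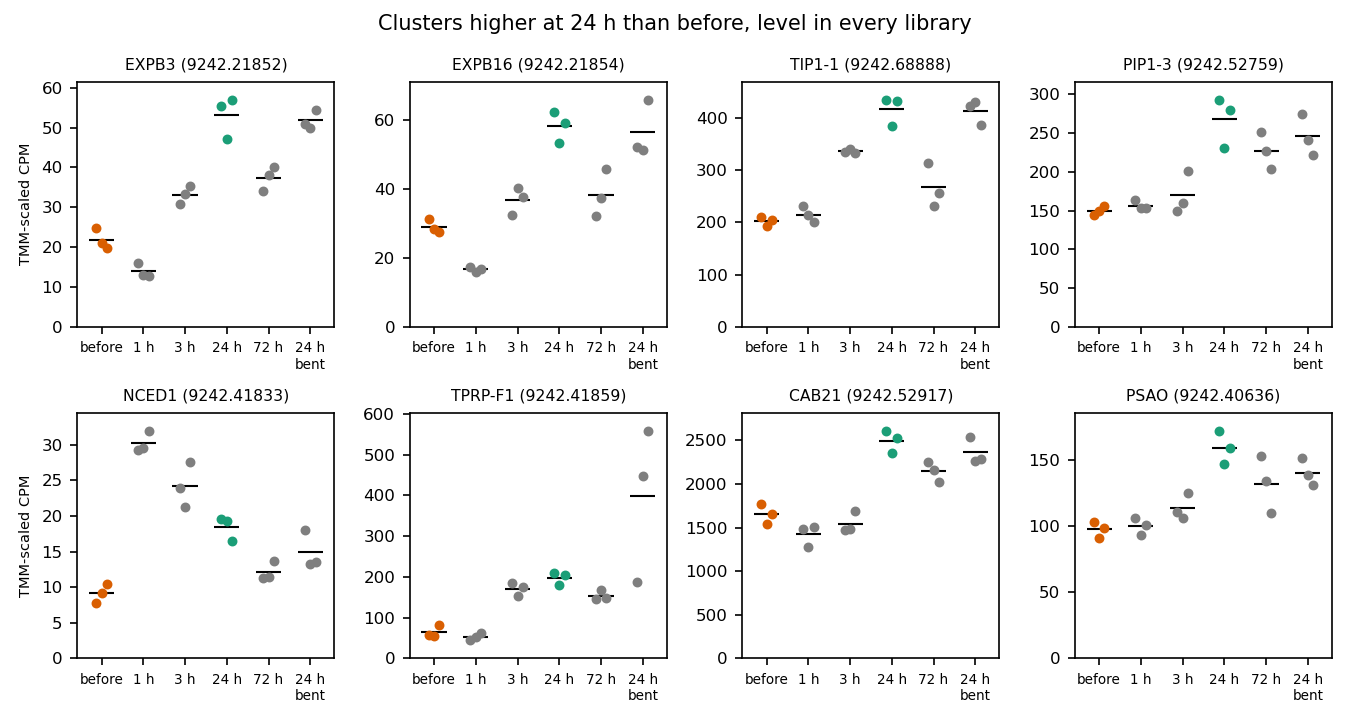
Level of 8 clusters that rose, in every library of 6 groups (TMM-scaled CPM, linear axis from 0; points are libraries, horizontal lines group means; orange, before treatment; green, unbent 24 h; grey, other groups). In each panel the 3 libraries of unbent 24 h lie above the 3 before treatment, a condition of naming for the largest rises among them. EXPB3 averaged 21.9 CPM before, 13.9 CPM at 1 h and 53.2 CPM at 24 h, whereas NCED1 was highest at 1 h, with a mean of 30.2 CPM.

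Most core clock genes were not called, and several were near their level of the day before. Of the 15 core clock clusters, 1 for each symbol, 3 were called, where 8.4% of all clusters tested were. Of those not called, APRR7, ADO3 and LUX averaged 0.45, 1.52 and 3.07 CPM at 24 h. Their log2 fold changes of 0.67 ± 0.90, 0.65 ± 0.34 and 0.30 ± 0.21 were too imprecise to show an unchanged level. The morning factor LHY (Cluster-9242.58125) held 109, 102 and 126 CPM before and 108, 105 and 106 CPM at 24 h (-0.08 ± 0.07, adjusted p = 0.609). GI, an afternoon component, held 109, 99.4 and 111 CPM before and 113, 120 and 116 CPM at 24 h (0.13 ± 0.07, adjusted p = 0.282). APRR1, the evening repressor known as TOC1, held 44.7, 44.4 and 45.9 CPM before and 49.7, 44.7 and 43.6 CPM at 24 h in Cluster-9242.51574 (0.03 ± 0.08, adjusted p = 0.875). In LHY and APRR1 the groups overlapped. Later on the first day the levels were further away: in unbent stems of 3 h LHY averaged 54.9 CPM, GI 226 CPM and APRR1 69.6 CPM. APRR5 held 76.1, 70.9 and 87.3 CPM before and 83.1, 85.2 and 80.5 CPM at 24 h (adjusted p = 0.596), and it was higher at 24 h than at 1 h by 0.93 ± 0.08 (adjusted p = 5.81e-13). The called members changed by little. The day-phase repressor PRR37 rose in 2 clusters, in Cluster-9242.34432 from 78.1, 63.9 and 70.6 CPM to 90, 94.8 and 93.6 CPM (0.39 ± 0.07, adjusted p = 0.000318). PRR73 rose by 0.30 ± 0.07 (adjusted p = 0.00255). RVE8, a morning activator, fell from 51.3, 51.1 and 53.3 CPM to 43.7, 41.2 and 36.8 CPM (-0.36 ± 0.09, adjusted p = 0.00893), a call lost without unbent 24 h replicate 3. A less abundant APRR1 cluster (Cluster-9242.47900) fell by 0.65 ± 0.13 (adjusted p = 0.000879), and a second LHY cluster (Cluster-9242.62483, picked after its values were seen) fell from 115, 135 and 125 CPM to 90.9, 86.5 and 85.3 CPM (-0.51, adjusted p = 0.0068). Over the whole clock list, 6 of 52 were higher and 6 lower, 11.5% each, against 4.66% and 3.75% of all clusters. The median was 0.07, and 4 were higher without unbent 24 h replicate 1. The part of the later time of day in these differences was not tested.

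**Figure D4:**
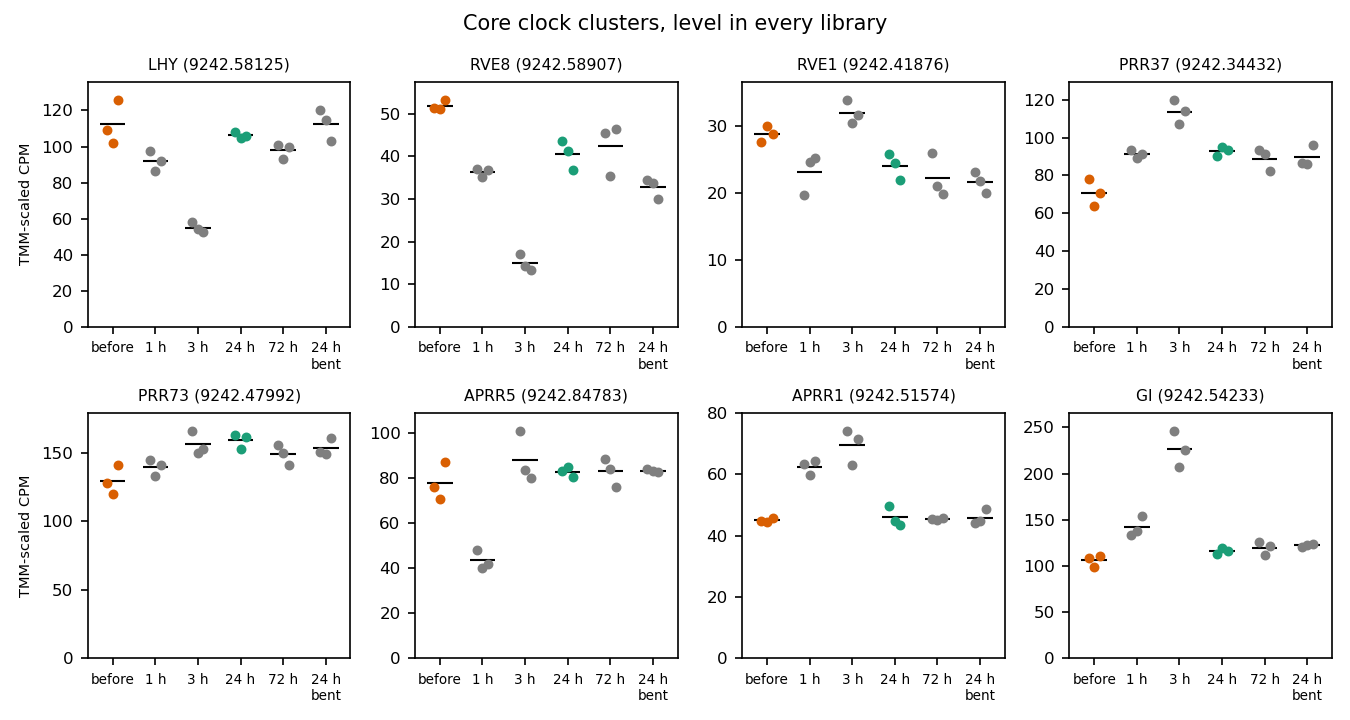
Level of 8 core clock clusters in every library of 6 groups (TMM-scaled CPM, linear axis from 0; points are libraries, horizontal lines group means; orange, before treatment; green, unbent 24 h; grey, other groups). LHY, APRR5, APRR1 and GI at 24 h lie at or near their level before treatment, while at 3 h LHY is at a mean of 54.9 CPM and GI at 226 CPM; PRR37 and PRR73 are slightly higher and RVE8 slightly lower at 24 h.

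Among 82 genes of light signalling and flowering time, 6 were higher (7.32%, against 4.66% of all clusters) and 11 lower (13.4%, against 3.75%). The lower count was 6 without replicate 1 before treatment or unbent 24 h replicate 3, and the higher count 3 without replicate 2 before treatment or unbent 24 h replicate 1. COL2, a CONSTANS-like zinc finger protein, fell from 44.7, 44.4 and 38.8 CPM to 25.6, 20.3 and 23.4 CPM (-0.89 ± 0.12, adjusted p = 6.47e-06). BBX32, a B-box protein that represses light responses in Arabidopsis, fell from 20.6, 16.5 and 20.9 CPM to 7.16, 8.52 and 8.46 CPM (-1.27 ± 0.20, adjusted p = 0.000105). COL15 rose from 13.1, 12.3 and 10.8 CPM to 22.2, 22.8 and 22.5 CPM (0.91 ± 0.12, adjusted p = 7.55e-07). For all 3 the 24 h level was near that of unbent stems at 72 h, where they averaged 25.1, 10 and 23.7 CPM.

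Heat shock proteins, the chaperones that fold other proteins, were more often lower than higher. Of 99 tested, 20 were lower (20.2%, against 3.75% of all clusters) and 5 higher (5.05%, against 4.66%). The median was -0.11. Without unbent 24 h replicate 3 the lower count was 12, and the higher count was 2 or 3 without any 1 library. HSP81-1, a cytosolic HSP90, held 1070, 1053 and 1073 CPM before and 790, 847 and 777 CPM at 24 h (-0.40 ± 0.06, adjusted p = 3.25e-06). HSC-2, a constitutive HSP70, held 862, 858 and 874 CPM before and 662, 684 and 684 CPM at 24 h (-0.35 ± 0.06, adjusted p = 0.00017). Replicates of these abundant transcripts differed by little, and the groups were clearly apart. Tubulins and kinesins, the microtubule proteins of dividing and growing cells, were also more often lower. Of 118 tested, 20 were lower (16.9%) and 9 higher (7.63%), with a median of -0.10. The lower count was 13 and 11 without replicates 1 and 3 before treatment and 11 and 12 without unbent 24 h replicates 1 and 3, and the higher count 3 without replicate 2 before treatment and 5 without unbent 24 h replicate 2. The kinesin KIN14A fell from 23.7, 24.9 and 26 CPM to 14.4, 17.3 and 11.8 CPM (-0.77 ± 0.12, adjusted p = 1.91e-05), whereas an alpha tubulin (TUBA) rose by 0.47 ± 0.07 (adjusted p = 8e-06).

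Unbent stems of 24 h were then set against unbent stems of 72 h, taken 2 days later. Of all clusters, 677 clusters differed (1.28%), 135 higher at 24 h (0.255%) and 542 lower (1.02%), and 61 of these by 2-fold or more. The total was 325 to 770 when 1 library was left out; it was 327 without unbent 24 h replicate 1, 392 without unbent 24 h replicate 3, 325 without 72 h replicate 2 and 450 without 72 h replicate 3. Of 141 ethylene members, 4 were lower and 0 higher, of 155 early response transcription factors 4 were lower and 1 higher, and of the calcium and touch list 1 was lower and 0 higher. MYC2 differed by -0.02 ± 0.18 (adjusted p = 0.986) and ACS1 by 0.07 ± 0.22 (adjusted p = 0.957). Lists of protein synthesis, cell division and chaperones held the most calls, all of them lower at 24 h. Of 206 cytosolic ribosomal proteins, 89 were lower and 0 higher, with a median of -0.25, beside 0.02 over all clusters. Of 138 cyclins, histones and DNA replication genes, 45 were lower and 0 higher (median -0.32), and of 118 tubulins and kinesins, 27 were lower and 0 higher (median -0.20). Of 99 heat shock proteins, 10 were lower and 0 higher (median -0.10), and of 77 nuclear photosynthesis genes, 4 were higher and 0 lower (median 0.16). The kinesin KIN5B, a motor of the mitotic spindle, held 19.7, 20.8 and 20.7 CPM at 24 h and 36.7, 44.5 and 38.1 CPM at 72 h (-0.96 ± 0.12, adjusted p = 3.7e-06). The cyclin CYCD1-1, which drives entry into the cell cycle, held 13.6, 9.99 and 13 CPM at 24 h and 17.8, 25.7 and 21.7 CPM at 72 h (-0.83 ± 0.12, adjusted p = 3.42e-05). The ribosomal protein S6 held 144, 162 and 138 CPM at 24 h and 175, 205 and 189 CPM at 72 h (-0.36 ± 0.06, adjusted p = 0.000423). Against the stems before treatment, by contrast, 15 ribosomal proteins were higher (7.28%) and 12 lower (5.83%). Of cyclin, histone and replication genes, 8 were higher (5.8%) and 8 lower (5.8%). Over all clusters these shares were 4.66% and 3.75%. Without 1 library the ribosomal counts went down to 8 and 4, and the cyclin, histone and replication counts to 5 and 2. Some of the genes that rose were also higher at 24 h than at 72 h, EXPB3 by 0.51 ± 0.09 (adjusted p = 0.000785), TIP1-1 by 0.64 ± 0.12 (adjusted p = 0.00486), NCED1 by 0.61 ± 0.13 (adjusted p = 0.00636) and LTI65 by 1.51 ± 0.30 (adjusted p = 0.0141).

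Stems bent a day earlier and unbent stems, both of 24 h, differed in 13 of 52918 clusters (0.0246%), 6 higher in bent stems (0.0113%) and 7 lower (0.0132%), and in 0 by 2-fold or more. At an unadjusted p under 0.05 there were 3269, DESeq2 called 60, and 0 to 45 were called when 1 library was left out: 0 without unbent replicate 1, 5 without unbent replicate 3, 45 without bent replicate 1 and 5 without bent replicate 3. Of the clusters named by rule, the putative invertase inhibitor (Cluster-9242.87323), matched to proteins that restrain sucrose cleavage, was the only 1 of the 13. It averaged 8.31 CPM before, 17.6 CPM in unbent and 9.48 CPM in bent stems of 24 h, and was lower in bent stems by 0.89 on the log2 scale (adjusted p = 0.0478). A further 2 were defensin-like proteins that were higher in bent stems, by 0.89 (adjusted p = 0.0430) and 0.98 (adjusted p = 0.0355). PPCK1, a kinase of phosphoenolpyruvate carboxylase picked after its values were seen, averaged 67.9 CPM before, 107 CPM in unbent and 75 CPM in bent stems (adjusted p = 0.00327 for bent against unbent). Other genes described above did not pass the test between bent and unbent stems. MYC2 averaged 12.9 CPM in bent and 17.8 CPM in unbent stems (adjusted p = 0.705), TIP1-1 413 and 418 CPM (adjusted p = 0.999), and CAB21 in Cluster-9242.52917 2367 and 2495 CPM (adjusted p = 0.933). The vacuolar-processing enzyme averaged 98.6 CPM in bent and 45.4 CPM in unbent stems, a wider gap that did not pass either (1.11 ± 0.34, adjusted p = 0.467).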

How the data were processed

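Poly(A) RNA of whole stems was sequenced as paired reads of 27 libraries, 3 in each of 9 groups taken from the labels. The authors deposited expected counts and FPKM per assembled transcript cluster, with annotation; RSEM 1.2.28 is named per the submitters' processing notes, while the program used for assembly was not given in the sources used here. Of the deposited expected counts, 8.05% were not whole, and all were rounded. FPKM as deposited by the authors served only in alternatives, as log2(FPKM + 0.1) and log2(FPKM + 1) with limma.

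Clusters passing edgeR's filterByExpr were scaled by TMM and fitted in 1 model over all 27 libraries with a term for each group (edgeR 4.0.16, robust quasi-likelihood, R 4.3.3). P-values were adjusted by Benjamini-Hochberg over 52918 clusters and called at 0.05. The standard error is the log2 fold change divided by the square root of F. Limma 3.58.1, DESeq2 1.42.0, Python 3.11.15, NumPy 2.4.6, pandas 2.3.3 and Matplotlib 3.10.9 were also used. The fit was tested on simulated data. Depth was 14.35 to 23.11 M expected counts a library. No 2 libraries of the compared groups agreed within counting noise (chi-square per degree of freedom 5.58 or more).

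Of 142016 clusters, 32636 had a Swiss-Prot match and 29429 a symbol. Lists were drawn by matching these names and genera of plants. A naming rule gave 166 clusters, and the text describes only part of them. It began with called clusters that had a match, a mean of at least 10 CPM in the higher group and no overlap (2451 clusters). From these it kept the 15 that rose most and the 15 that fell most. Up to 4 called members of each list by smallest p, and the core clock symbols, were added. Those left undescribed include the rises ATJ11 and BGLU17, the falls CCR4 and ALP1-like, and the core clock genes RVE1 and ADO1. Other names are said to be picked later. The members and lists were chosen with earlier results of these data known. Patterns were edited after annotation and list results were seen, 1 gene being removed from the organelle list, and the defence signalling and root lists were added. No sequence or reference was used. Alternatives changed the scaling, filter, test, fold minimum, libraries and replicate block.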

Additional observations from a re-analysis of the deposited data

How the results depend on the processing

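The 4446 calls of unbent 24 h against before became 4387 with RLE size factors, 4081 with no filter, 4701 with a stricter filter, 5099 with DESeq2, 4055 with limma-voom, 4157 in the 6 libraries alone and 4389 without other-organism, organelle and ribosomal RNA clusters; 772 passed a 2-fold minimum. Without replicates 2 and 3 before treatment there were 1289, where the lone library left is assumed to vary like the other groups. These removals of clusters and of replicates 2 and 3 were chosen after seeing the data. List members numbered 653 called, 136 with the 2-fold minimum and 203 without replicates 2 and 3; named clusters numbered 154 called and 57 with the 2-fold minimum and 107 without replicates 2 and 3. Against 72 h, 677 became 1072 with DESeq2 and 61 with the 2-fold minimum, and against 1 h, 9279 became 3249 with it. Bent against unbent, 13 became 132 with no filter, 8 with the stricter filter, 60 with DESeq2, 82 in 6 libraries and 0 with the 2-fold minimum. Leaving out 1 library gave 2690 to 3852 calls against before, 325 to 770 against 72 h, 0 to 45 for bent against unbent, 7142 to 8312 against 1 h, 444 to 559 list members and 142 to 146 named clusters. Replicate numbers did not pair the samples (same-number correlations of -0.004, 0.032 and -0.055); with a replicate block there were 4612 calls against before and 21 for bent against unbent. No called named cluster changed direction. Of those not called, 3 crossed 0 when 1 library was left out: ELF3 Cluster-9242.26385 ranged from -0.005 to 0.137 and APRR1 Cluster-9242.51574 from -0.031 to 0.069, both lowest without unbent 24 h replicate 1, and LHY Cluster-9242.58125 from -0.146 to 0.01, highest without replicate 3 before treatment. Over these alternatives 255 values of named clusters lost the call and 2712 kept direction and side of the threshold, leaving out those to which DESeq2 gave no adjusted p; the cause was not tested. List counts against 1 h and 72 h were not recomputed. Clusters of few counts are the least certain at this depth.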

Other observations

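Genes of nutrient supply were more often higher than lower in unbent stems at 24 h than before. In the nitrogen, phosphate and sulfur list, 20 of 190 were higher (10.5%, against 4.66% of all clusters) and 8 lower (4.21%, against 3.75%). The median log2 fold change was 0.02. The higher count was 12 without replicate 2 before treatment and 9 and 12 without unbent 24 h replicates 1 and 3, and the lower count was 4 or 5 without any 1 of 4 libraries. The purple acid phosphatase PAP2, of a family that releases phosphate, held 186, 238 and 244 CPM before and 358, 361 and 331 CPM at 24 h (0.65 ± 0.09, adjusted p = 4.72e-05). SPX4, a phosphate-sensing protein, rose from 8.24, 10.2 and 10.3 CPM to 15.8, 16.4 and 17.3 CPM (0.78 ± 0.16, adjusted p = 0.000719). In both the groups did not overlap, but both were named by smallest p. Among meristem markers, 12 of 103 were higher (11.7%) and 9 lower (8.74%). SCL14, a GRAS-family regulator, fell from 11.3, 13.9 and 19.8 CPM to 5.9, 5.52 and 6.74 CPM (-1.32 ± 0.18, adjusted p = 2.32e-06). TDR, the receptor that keeps the cambium dividing in Arabidopsis, rose from 15.7, 16.8 and 17 CPM to 29, 29 and 26.8 CPM (0.77 ± 0.13, adjusted p = 5.67e-05), and CLV1, a receptor of the shoot tip, rose by 0.56 ± 0.09 (adjusted p = 3.02e-05).

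Lignin and phenylpropanoid genes were called about as often as all clusters, with 9 of 144 higher (6.25%, against 4.66% overall) and 7 lower (4.86%, against 3.75%); the higher count was 5 without replicate 2 before treatment or unbent 24 h replicate 3, and the lower count 2 without replicate 3 before treatment and 4 without unbent 24 h replicate 1 or 2. HST, an acyltransferase on the way to lignin, fell from 26.9, 25.9 and 32.1 CPM to 13.9, 7.14 and 13.7 CPM (-1.30 ± 0.17, adjusted p = 9.33e-06), while the abundant peroxidase PER42 rose from 4557, 4081 and 4386 CPM to 6676, 5353 and 6754 CPM (0.53 ± 0.09, adjusted p = 0.00105). Of 142 genes of reactive oxygen, 15 were lower (10.6%, against 3.75% of all clusters) and 7 higher (4.93%, against 4.66%). The lower count was 8 without unbent 24 h replicate 1, and the higher count 3 or 4 without replicate 1 or 3 before treatment or unbent 24 h replicate 3. The catalase CAT3, which breaks down hydrogen peroxide, fell from 123, 97.6 and 113 CPM to 86.4, 80.5 and 73.3 CPM (-0.47 ± 0.08, adjusted p = 8.43e-05).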
